A study of Mus musculus with 6 samples.

Results

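The genes described here are 10 immediate early genes that neuronal activity induces: Npas4, Arc, Fos, Fosb, Junb, Egr1, Egr2, Egr4, Nr4a1 and Ptgs2. They were chosen by gene symbol from a count table of 53715 mouse genes, and all 10 had enough reads to be tested among the 16478 genes that passed a filter on low counts. The tissue was hippocampus of male C57BL/6J mice aged 2 to 3 months, with no genetic alteration named in the labels. The 6 mice were fed for 3 weeks, 3 with control diet and 3 with ketogenic diet, which is rich in fat and poor in carbohydrate. Each mouse gave 1 messenger RNA library. The question taken up was whether the activity genes moved together with the diet. No stimulation is named in the labels, and the values are levels in tissue as collected.

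Immediate early genes are transcribed within minutes of synaptic stimulation, without new protein synthesis. Calcium entry through glutamate receptors and calcium channels activates kinases and phosphatases, which act on transcription factors already bound at these genes, chiefly CREB and its coactivators, the serum response factor with its partners, and MEF2. Some of the products are themselves transcription factors that switch on a slower set of genes, and others act directly at synapses or in lipid signalling. In the hippocampus they are widely used as a record of which neurons were recently active.

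Total counts ran from 16832240 to 18357792 per library. With edgeR's quasi-likelihood test and Benjamini-Hochberg adjustment, 1593 of the 16478 tested genes changed with diet at an adjusted p under 0.05, of which 832 were higher and 761 lower on the ketogenic diet. The count was 538 without ketogenic 2, 677 without control 2, 885 without ketogenic 3 and 1124 without control 1, so shares of all tested genes given below hold for the 6 libraries together. The median log2 fold change over all tested genes was -0.01. The extraction protocol in the labels names retina, but summed levels of 6 photoreceptor genes were 1.77 to 3.24 CPM, the read count scaled to library size, and the libraries were treated as hippocampus as the tissue label states. Markers of some cell types set the diets apart. Summed choroid plexus markers were 800.4 to 7251 CPM in the control libraries and 53.3 to 99.3 in the ketogenic ones, and 10 of 10 fell. Of 10 myelin markers 8 fell. Of 10 endothelial, 10 microglial and 8 astrocyte markers, 0 rose and 0 fell, and their sums overlapped between diets.

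The promoter windows of these genes are shown because the binding site of CREB is the element many of them share. RefSeq windows on GRCm38.p6, from 250 bases before to 50 bases after the annotated start, were available for 8 of the 10 genes, with 12 windows in all. Windows of Arc and Egr1 were not used here. Both genes whose level fell and that have a window, Npas4 and Ptgs2, are printed with a pair that did not pass the test, Fos and Nr4a1. Each runs 5′ to 3′ on the gene's own strand, and capitals mark TGACG or its reverse complement CGTCA, the core of the cyclic AMP response element.
Npas4: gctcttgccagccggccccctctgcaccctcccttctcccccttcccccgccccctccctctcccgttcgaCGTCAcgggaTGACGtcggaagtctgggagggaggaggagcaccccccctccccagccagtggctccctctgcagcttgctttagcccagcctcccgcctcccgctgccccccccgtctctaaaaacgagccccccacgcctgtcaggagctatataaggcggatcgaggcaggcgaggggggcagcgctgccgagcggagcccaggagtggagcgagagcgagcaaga
Ptgs2: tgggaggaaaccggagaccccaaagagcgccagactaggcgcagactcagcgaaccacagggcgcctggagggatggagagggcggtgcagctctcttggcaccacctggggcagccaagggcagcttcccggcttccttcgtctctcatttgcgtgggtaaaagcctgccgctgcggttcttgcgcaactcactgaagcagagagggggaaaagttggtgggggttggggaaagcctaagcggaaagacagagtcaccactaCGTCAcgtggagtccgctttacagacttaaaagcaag
Fos: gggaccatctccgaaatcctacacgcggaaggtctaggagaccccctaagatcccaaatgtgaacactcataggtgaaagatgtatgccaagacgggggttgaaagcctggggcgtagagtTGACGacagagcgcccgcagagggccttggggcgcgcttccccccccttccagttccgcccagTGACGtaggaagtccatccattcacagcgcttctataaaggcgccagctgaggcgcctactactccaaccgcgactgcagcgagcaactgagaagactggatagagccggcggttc
Nr4a1: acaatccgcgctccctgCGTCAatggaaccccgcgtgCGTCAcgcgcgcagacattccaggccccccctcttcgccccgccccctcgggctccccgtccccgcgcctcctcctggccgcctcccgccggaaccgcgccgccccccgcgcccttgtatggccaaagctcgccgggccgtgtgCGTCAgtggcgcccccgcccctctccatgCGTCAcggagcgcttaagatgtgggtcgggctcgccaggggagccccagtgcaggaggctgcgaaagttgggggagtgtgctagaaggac
The Npas4 window lies at chr19:4989922-4990221 on the minus strand, and its matches begin 179 and 169 bases before the start. The Ptgs2 window, chr1:150099781-150100080 on the plus strand, has its match 13 bases after the start. The Fos window lies at chr12:85473640-85473939 on the plus strand, with matches 129 and 66 bases before the start. In the Nr4a1 window, chr15:101266596-101266895 on the plus strand, matches stood 233, 213, 69 and 40 bases before the start. The counted Nr4a1 gene model begins further upstream, at chr15:101254269, so this window lies inside it and follows another start.

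The core TGACG, on either strand, was found in at least 1 window of all 8 genes, against 20.8% of the 32817 mouse promoter windows of the same length. The percentages count windows and not genes. Egr2 has 5 of the 12 windows, and 3 of its 5 hold the core. The palindrome TGACGTCA, which contains the core, was in none of the 8 and in 1.79% of all windows. The site of the FOS and JUN proteins, TGANTCA on either strand, was in none of the 8 and in 7.81% of all windows. Of the EGR sites, GCGGGGGCG was in windows of Fosb and Nr4a1 and in 2.91% of all windows, and GCGTGGGCG was in none of the 8 and in 0.612% of all. The CArG box, which serum response factor binds, was in windows of Egr2 and in 1.63% of all windows. TATAAA was in windows of Fos and Junb and in 13.6% of all. The core therefore stood in the windows of genes that fell and of genes that did not pass the test alike. These are matches of letters in a short window, not measured binding.

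The 10 genes did not move as a block. Npas4, Arc and Ptgs2 fell on the ketogenic diet, none of the 10 rose, and the other 7 did not pass the test. In these 3 genes alone the diets did not overlap, all with every ketogenic library below every control library. Over all tested genes 9.67% passed the test in either direction and 4.62% were lower, and 27.6% had diets that did not overlap, 13.6% with the ketogenic libraries lower and 14% with them higher. The median log2 fold change of the 10 genes was -0.10, against -0.01 for all tested genes. The estimates were below 0 in 8 genes and above 0 in 2, Fos and Fosb.

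**Figure D1:**
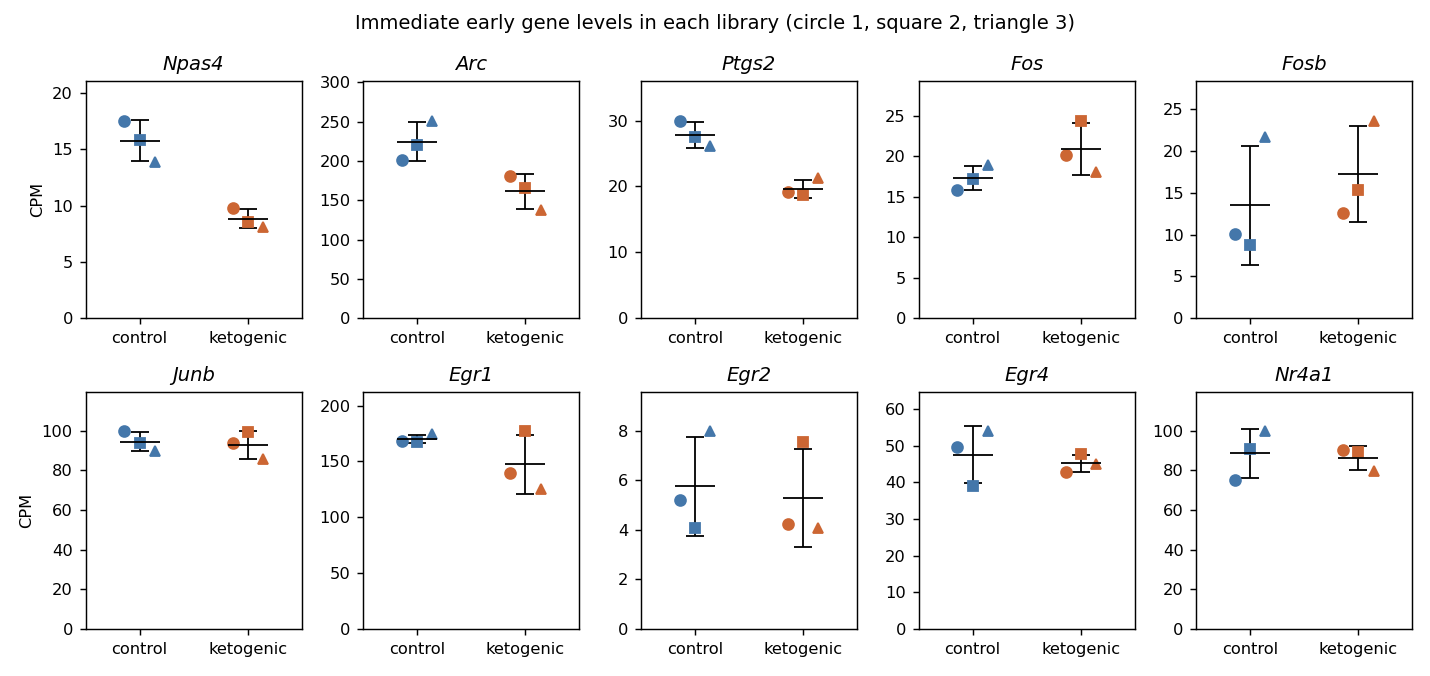
Normalised level (CPM) of each of the 10 immediate early genes in each library, control and ketogenic, on a separate linear scale per gene, with points for libraries and bars for the mean and standard deviation (n = 3 per diet). Npas4, Arc and Ptgs2 have every ketogenic library below every control library, and the other 7 genes overlap.

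Npas4 encodes a neuron-specific transcription factor induced by calcium entry, known to regulate inhibitory synapses onto the active neuron (ENSMUSG00000045903, chr19:4984355-4989971). Its normalised level was 17.6, 15.8 and 13.9 CPM in control libraries 1 to 3 and 9.76, 8.60 and 8.14 CPM in ketogenic libraries 1 to 3. The lowest control library stood above the highest ketogenic one. The means were 15.8 ± 1.83 and 8.83 ± 0.835 CPM (SD, n = 3 each), a log2 fold change of -0.84 ± 0.14 (SE, edgeR, adjusted p = 0.00492, 95% interval -1.14 to -0.53) on 138 to 297 reads a library. Leaving out any 1 library kept the call, with log2 fold changes of -0.92 to -0.75. Leaving out control 1 and control 2 together, the libraries richest in choroid plexus markers, gave -0.66 with an adjusted p of 0.123.

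Arc encodes a cytoskeleton-associated protein that travels to active synapses, where it promotes the removal of AMPA receptors (ENSMUSG00000022602, chr15:74669083-74672570). Its levels were 202, 220.5 and 252 CPM in control libraries 1 to 3 and 181, 166 and 137 CPM in ketogenic libraries 1 to 3. Control 3 was highest and ketogenic 3 lowest, and the diets did not overlap. The means were 225 ± 25.1 and 161 ± 22.1 CPM, a log2 fold change of -0.48 ± 0.11 (SE, edgeR, adjusted p = 0.0206, 95% interval -0.71 to -0.24). The direction held in all 16 alternative analyses, but the call was lost in 5. These were without control 2 (adjusted p = 0.0677), without ketogenic 2 (0.0800), without ketogenic 3 (0.0521), and with limma on log2(FPKM + 1) and on log2(FPKM + 0.1), where FPKM are reads scaled by gene length and library size (0.0911 and 0.0822).

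Ptgs2 encodes cyclooxygenase-2, which makes the precursor of prostaglandins and in excitatory neurons is induced by synaptic activity (ENSMUSG00000032487, chr1:150100031-150108227). Control libraries 1 to 3 had 30.0, 27.5 and 26.1 CPM and ketogenic libraries 1 to 3 had 19.1, 18.7 and 21.2 CPM. All control libraries were above all ketogenic ones. The means were 27.9 ± 1.98 and 19.7 ± 1.36 CPM, a log2 fold change of -0.50 ± 0.10 (SE, edgeR, adjusted p = 0.0135, 95% interval -0.73 to -0.27). Without control 2 the adjusted p was 0.0543 and without ketogenic 2 it was 0.0802. Without control 1 and control 2 together the log2 fold change was -0.41 with an adjusted p of 0.221.

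Summed markers of granule cells, the principal neurons of the dentate gyrus, were lower on the ketogenic diet, as were these 3 genes. The summed level of 10 such markers was 940.4 to 1082 CPM in the control libraries and 461.6 to 730.2 in the ketogenic ones. Of the 10 markers 6 fell and 0 rose, where 4.62% of all tested genes fell and 5.05% rose. The order within a diet could differ: ketogenic 3 had the lowest marker sum of its diet and the highest Ptgs2 level. Among 11 markers of pyramidal cells of fields CA1 and CA3, 6 fell and 1 rose, with sums of 2017 to 2217 and 1670 to 1767 CPM. Markers of other neurons were higher on the ketogenic diet: 9 of 11 of GABAergic interneurons rose, with sums of 723.6 to 740.5 and 999.5 to 1281 CPM, and 6 of 10 tested of the subiculum and cortex rose, with sums of 325.5 to 430.5 and 503.1 to 564.4. Of 7 pan-neuronal markers 1 rose and 1 fell, with sums of 6266 to 6759 and 6766 to 6835 CPM. No marker of these lists was at 0 in every library. The part of the marker differences in the fall of Npas4, Arc and Ptgs2 was not tested, and in bulk tissue fewer cells of a type and less RNA per cell cannot be told apart.

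Counts of the 3 genes were also set against the 10 granule cell markers within each library, as a description with no test, chosen after the values were seen. The outcome depended on the marker. For Arc the log2 ratio was higher on the ketogenic diet with 8 of the 10 markers and lower with 2, with a median difference of 0.33. The difference ran from -0.68 with Calb1, a calcium-binding protein, to 2.02 with Lct. The diets did not overlap with 5 markers, 4 with the ketogenic libraries higher and 1, Calb1, with them lower. For Ptgs2 the ratio was higher with 8 and lower with 2, with a median difference of 0.31, and for Npas4 higher with 5 and lower with 5, with a median difference of -0.02.

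Prox1, a transcription factor that marks granule cells, itself fell (log2 fold change -0.71, edgeR, adjusted p = 0.00561). This fall was larger than that of Arc (-0.48) or Ptgs2 (-0.50) and smaller than that of Npas4 (-0.84). The mean direction of the ratios to Prox1 follows from these differences. Arc reads per Prox1 read were 1.54, 1.55 and 1.54 in control libraries 1 to 3 and 1.72, 1.93 and 1.83 in ketogenic libraries 1 to 3. Npas4 per Prox1 was 0.134, 0.111 and 0.0855 in control and 0.0929, 0.0999 and 0.108 in ketogenic libraries. The ketogenic ratios of Arc to Prox1 were all above the control ones, and those of Npas4 overlapped. Ptgs2 per Prox1 was 0.229, 0.193 and 0.160 in control and 0.182, 0.217 and 0.283 in ketogenic libraries, which overlapped as well.

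Fos, Fosb and Junb encode subunits of the dimeric transcription factor AP-1. Fos, the founding member of the family (ENSMUSG00000021250, chr12:85473890-85477273), had 15.9, 17.3 and 18.9 CPM in control and 20.2, 24.4 and 18.1 CPM in ketogenic libraries 1 to 3. Ketogenic 3 lay below control 3, so the diets overlapped. The log2 fold change was 0.27 ± 0.13 (SE, edgeR, adjusted p = 0.260), with an interval of -0.02 to 0.56 that does not reach the fall seen in Npas4, Arc or Ptgs2. Fosb, whose stable truncated product accumulates with repeated activity (ENSMUSG00000003545, chr7:19302696-19310051), had 10.1, 8.80 and 21.7 CPM in control and 12.6, 15.4 and 23.6 CPM in ketogenic libraries 1 to 3. In both diets library 3 was the highest, above all 4 other libraries. The log2 fold change of Fosb was 0.35 ± 0.33 (edgeR, adjusted p = 0.595). It rested on single libraries, being 0.86 without control 3 (adjusted p = 0.0448), 0.05 without ketogenic 3 and -0.34 without control 1 and control 2.

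Junb encodes a JUN-type partner of the FOS proteins (ENSMUSG00000052837, chr8:84974484-84978718). Its levels were 99.7, 93.9 and 89.8 CPM in control and 93.8, 99.5 and 85.5 CPM in ketogenic libraries 1 to 3. The diets overlapped throughout, and the log2 fold change was -0.02 ± 0.08 (SE, edgeR, adjusted p = 0.897, 95% interval -0.19 to 0.15). Its sign turned to 0.02 without control 1 and to 0.03 without ketogenic 3. Its within-diet SD, 0.0942 on the log2 scale, was the smallest of the 10 genes, and the Fosb value, 0.591, was the largest. Junb overlaps Prdx2 on the opposite strand in the reference annotation. How the counting treated strand is not stated in the labels, so some of its reads may belong to that gene.

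Egr1, Egr2 and Egr4 encode zinc finger transcription factors of one family. Egr1, required for the late phase of long-term potentiation (ENSMUSG00000038418, chr18:34859823-34864984), had 169, 168 and 174 CPM in control and 139.5, 177 and 126 CPM in ketogenic libraries 1 to 3. Ketogenic 1 and 3 lay below every control library, while ketogenic 2 lay above them all. The log2 fold change was -0.21 ± 0.11 (SE, edgeR, adjusted p = 0.291), and without ketogenic 2 it was -0.36 with an adjusted p of 0.0443.

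Egr2, best known for its part in hindbrain patterning and myelination by Schwann cells (ENSMUSG00000037868, chr10:67535475-67542188), was the scarcest of the 10 with 69 to 133 reads a library. It had 5.21, 4.08 and 7.99 CPM in control and 4.26, 7.57 and 4.07 CPM in ketogenic libraries 1 to 3, with 1 high library in each diet. The log2 fold change was -0.12 ± 0.30 (SE, edgeR, adjusted p = 0.867), and its interval of -0.78 to 0.55 is wide enough to hold a change as large as that of Arc in either direction. Egr4 (ENSMUSG00000071341, chr6:85511121-85513589) had 49.8, 39.0 and 54.0 CPM in control and 42.8, 47.6 and 45.2 CPM in ketogenic libraries 1 to 3. All ketogenic libraries lay within the control range, and the log2 fold change was -0.07 ± 0.11 (edgeR, adjusted p = 0.764). Without control 3 the estimates turned to 0.19 for Egr2 and 0.03 for Egr4, and that of Egr2 also turned to 0.02 without ketogenic 1 and 0.04 without ketogenic 3, none past the threshold.

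Nr4a1 encodes an orphan nuclear receptor induced through CREB (ENSMUSG00000023034, chr15:101254269-101274795). It had 75.3, 90.7 and 99.8 CPM in control and 90.3, 89.3 and 79.5 CPM in ketogenic libraries 1 to 3. The ketogenic values lay inside the control range, with a log2 fold change of -0.04 ± 0.10 (SE, edgeR, adjusted p = 0.881, 95% interval -0.26 to 0.19). The estimate was 0.06 without control 3 and 0.02 without ketogenic 3.

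**Figure D2:**
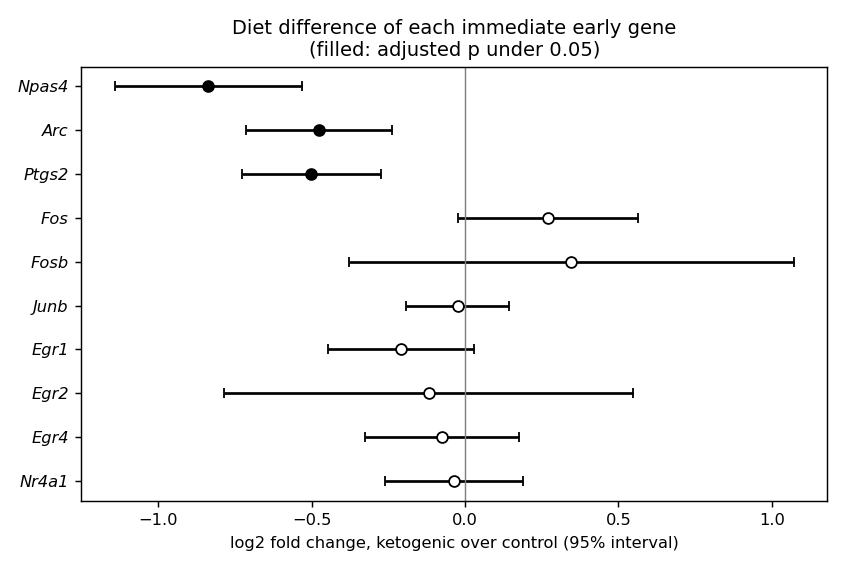
Log2 fold change, ketogenic over control, of each of the 10 genes from edgeR, with 95% intervals and filled points where the adjusted p is under 0.05. Npas4 at -0.84, Ptgs2 at -0.50 and Arc at -0.48 stand below 0, and the intervals of the other 7 genes include 0.

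Ratios of the fallen genes to Fos within each library do not depend on scaling between libraries. They are given as a description, since Fos was picked after its estimate was seen to lie above 0, and lower ratios follow from that choice. Npas4 reads per Fos read were 1.11, 0.918 and 0.737 in control and 0.484, 0.352 and 0.450 in ketogenic libraries 1 to 3. Arc per Fos was 12.7, 12.8 and 13.3 in control and 8.96, 6.81 and 7.59 in ketogenic libraries. For both, all control libraries were above all ketogenic ones. Ptgs2 per Fos was 1.89, 1.59 and 1.38 in control and 0.949, 0.765 and 1.17 in ketogenic libraries, again without overlap. Arc per Egr1, both of which had estimates below 0, was 1.197, 1.31 and 1.44 in control and 1.29, 0.939 and 1.09 in ketogenic libraries, which overlapped.

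**Figure D3:**
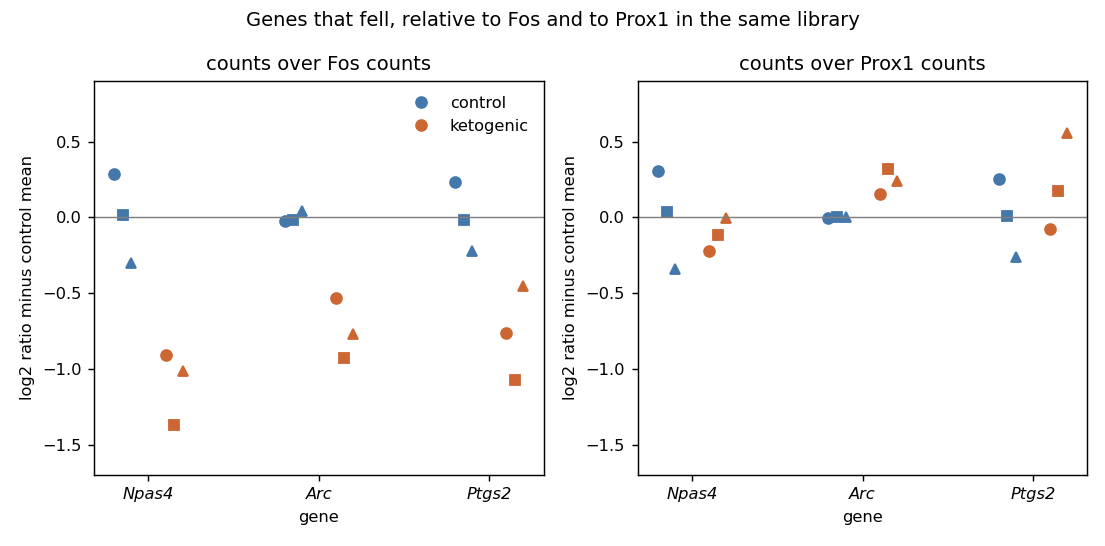
Log2 ratio of the read counts of Npas4, Arc and Ptgs2 to those of Fos (left) and Prox1 (right) in each library, minus the mean of the control libraries. Circles, squares and triangles are libraries 1, 2 and 3 of each diet. Npas4, Arc and Ptgs2 per Fos are lower in every ketogenic library than in any control library, while per Prox1 the diets overlap for Npas4 and Ptgs2 and the ketogenic libraries are higher for Arc.

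Per gene length, the genes covered a wide range of levels. The mean FPKM over all 6 libraries was 62.7 ± 13.2 (SD) for Arc, 40.4 ± 2.34 for Junb, 35.2 ± 4.66 for Egr1, 24.8 ± 2.48 for Nr4a1 and 21.4 ± 2.46 for Egr4. Below these came Fos with 8.07 ± 1.25 FPKM, Ptgs2 with 5.15 ± 1.03, Npas4 with 3.73 ± 1.21, Fosb with 2.45 ± 0.978 and Egr2 with 1.62 ± 0.526. The ranges over libraries of neighbours in this order were separate between Arc and Junb, between Egr4 and Fos and between Fos and Ptgs2, and overlapped for the other pairs. The ketogenic means of a neighbouring pair stood in reverse order, with 2.74 FPKM for Fosb and 2.68 for Npas4. That reversal rested on ketogenic 3, with 3.77 FPKM for Fosb and 2.47 for Npas4. Npas4 was the higher in ketogenic 1 (2.95 and 2.00) and ketogenic 2 (2.60 and 2.44). The genes that fell were thus both the most abundant of the 10 and a pair from its lower part.

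How far the 10 genes moved together from library to library was also measured. Taking log2 CPM centred on each gene's mean over 6 libraries, the mean over the 10 genes was 0.03, -0.04 and 0.25 in control libraries 1 to 3 and -0.13, 0.03 and -0.15 in ketogenic libraries 1 to 3. The range of this mean over the libraries was 0.395, and 0.388 with RLE scaling, 0.383 with upper quartile scaling and 0.334 on log2(FPKM + 1). The number of genes above their own mean was 6, 6 and 8 in the control libraries and 3, 7 and 1 in the ketogenic ones. Control 3 was the highest control library for 7 of the 10 genes, and ketogenic 3 the lowest ketogenic library for 7 of the 10, against 37% and 36.3% of all tested genes. Arc, Fos, Egr1, Egr2 and Nr4a1 had both. Fosb had its highest value of all 6 libraries in ketogenic 3, and Ptgs2 had neither pattern.

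**Figure D4:**
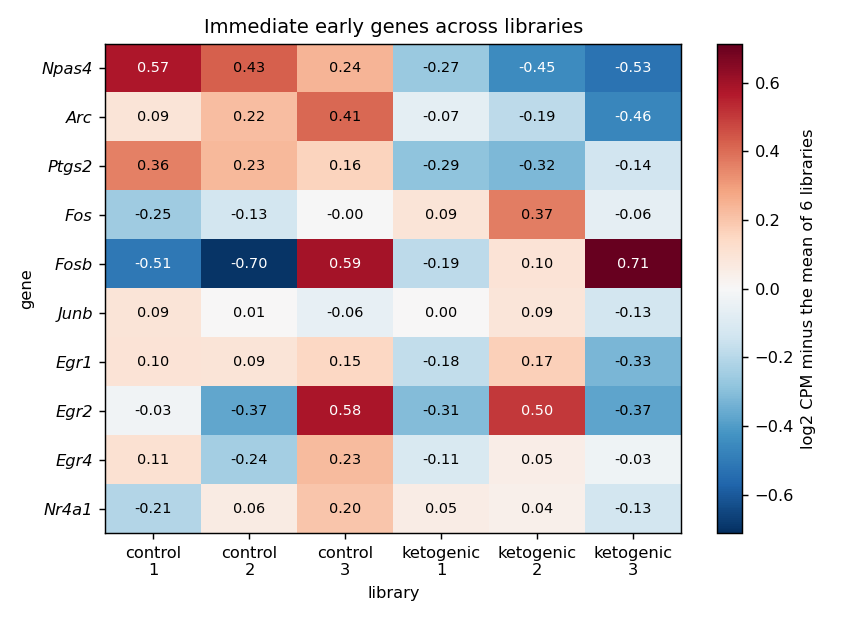
Log2 CPM of each gene minus its mean over the 6 libraries, with 1 column per library and 1 row per gene, on a colour scale centred on 0. Npas4, Arc and Ptgs2 are positive in every control library and negative in every ketogenic one, and each of the other 7 genes changes sign within at least 1 diet.

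Other tested genes with a mean of at least 1 CPM were compared with the mean profile of the 10, leaving out clone and gene model names. The 5 of these 13474 genes whose profile over the 6 libraries lay nearest were Rpf1, Kif26b, Znhit3, Zfp931 and Rfxap. Their root mean square differences from the mean profile were 0.0443, 0.0461, 0.0463, 0.0469 and 0.0474 on the log2 scale. The median over the genes compared was 0.192. None of the 5 passed the diet test, with adjusted p-values of 0.474 to 0.714 in edgeR.

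Other genes of the rapid class moved in both directions. Of 34 further genes known to be induced rapidly, 4 rose and 1 fell, with a median log2 fold change of 0.08, where 5.05% of all tested genes rose and 4.62% fell. Plk2, a kinase induced by sustained activity that weakens synapses, fell from 239 to 174 CPM (log2 fold change -0.46 ± 0.07 SE, edgeR, adjusted p = 0.00451), and like Arc it is among the more abundant, with 45.7 FPKM. Cyr61, a secreted matrix protein also made by vessel and fibroblast cells, rose from 4.08 to 9.37 CPM (1.19 ± 0.18, adjusted p = 0.00356). The calls of Plk2 and Cyr61 held in all 16 alternatives. Summed markers of fibroblasts and mural cells rose with Cyr61, from 136.6 to 205.6 CPM in control libraries to 351.2 to 423.8 in ketogenic ones, with 7 of 9 tested markers up. Their part in the rise of Cyr61 was not tested.

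Sik1, a kinase that restrains CREB coactivators, rose from 13.8 to 21.8 CPM (0.66 ± 0.12 SE, edgeR, adjusted p = 0.00746, and 0.0537 without ketogenic 2). Nr4a2, a nuclear receptor related to Nr4a1 and also a marker of deep cortical neurons, rose from 60.7 to 85.3 CPM (0.49 ± 0.12, adjusted p = 0.0276). Its call was lost on leaving out any 1 library except control 3, with adjusted p up to 0.0951. With all libraries it was lost in limma on both FPKM scales (0.0999 and 0.0934), and it held in 8 of 16 alternatives. Without control 1 and control 2 the log2 fold change of Nr4a2 was 0.22. The summed subicular and cortical markers given above were higher on the ketogenic diet too, and their part in the rise of Nr4a2 was not tested. Fosl2, another FOS family member, rose from 57.1 to 96.8 CPM (0.76 ± 0.21, adjusted p = 0.0427) with diets that overlapped. Its call was lost without control 1, control 2, ketogenic 2 or ketogenic 3, with adjusted p-values of 0.117, 0.168, 0.151 and 0.142, and with all libraries in DESeq2 (0.119) and on both FPKM scales (0.153 and 0.143). Without control 1 and control 2 the log2 fold change was 0.33 (0.538). Jun, the AP-1 partner of Fos, had a log2 fold change of 0.30 ± 0.09 (adjusted p = 0.0725) and Egr3, of the Egr1 family, one of -0.39 ± 0.13 (0.0822), neither past the threshold. Each passed it in 4 of 16 alternatives. With all libraries both passed with no filter in edgeR (Jun 0.00398, Egr3 0.000157) and in DESeq2 (0.0276 and 0.0151). Jun also passed without control 1 (0.0432) or ketogenic 1 (0.0437) and Egr3 without control 2 (0.0172).

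Slower genes are those that activity induces over hours. Of 19 such genes 1 rose and 2 fell, with a median log2 fold change of -0.06, where 5.05% of all tested genes rose and 4.62% fell, so the count lies near the background. Nptxr, the neuronal pentraxin receptor, rose (0.31 ± 0.07 SE, edgeR, adjusted p = 0.0243). Kcna1, a potassium channel subunit, fell (-0.32 ± 0.07, adjusted p = 0.0188), and so did Penk, the precursor of enkephalin peptides (-0.58 ± 0.16, adjusted p = 0.0460). Without control 2 or without ketogenic 2 none of the 19 genes passed. Without control 1 all 3 of these calls were lost (Nptxr 0.0597, Kcna1 0.0586, Penk 0.131) and Nrn1, named after its values were seen, passed (0.0383). Without ketogenic 3 those of Nptxr (0.0770) and Penk (0.139) were lost. The call of Penk was also lost without control 3 (0.0677) and with upper quartile scaling (0.0512), and it held in 7 of 16 alternatives. Vgf and Scg2, precursors of secreted peptides and with Nptxr the most abundant of the list, had log2 fold changes of 0.21 ± 0.13 (adjusted p = 0.405) and 0.09 ± 0.09 (0.609).

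Of 29 genes of the signalling upstream of the immediate early genes, 8 fell and 2 rose, with a median log2 fold change of -0.11, where 4.62% of all tested genes fell and 5.05% rose. The difference from these shares was not tested. Ppp3ca, the catalytic subunit of the calcium-dependent phosphatase calcineurin, fell (-0.61 ± 0.09 SE, edgeR, adjusted p = 0.00360), as did Camk2b (-0.65 ± 0.11, 0.00520) and Camk2a (-0.44 ± 0.08, 0.00975), subunits of the calcium-dependent kinase CaMKII. Crtc1, a CREB coactivator that enters the nucleus on calcium entry, fell (-0.37 ± 0.07, 0.00651). The other 4 that fell, named after their values were seen, were Mkl1, Mkl2, Elk1 and Elk4, all partners of serum response factor. Their calls held less well: leaving out 1 library lost that of Elk1 in all cases but ketogenic 1, Elk4 in all but control 1, Mkl1 in all but ketogenic 3, and Mkl2 without control 2 (0.0639) or ketogenic 2 (0.0804). The highest adjusted p-values, without ketogenic 2, were 0.185 for Elk1, 0.127 for Elk4 and 0.135 for Mkl1. All 4 calls were also lost on both FPKM scales, and that of Elk1 with upper quartile scaling (0.0582). Mapk3, which encodes the kinase ERK1, rose (0.30 ± 0.06, 0.0127), and so did Rps6ka5, a kinase that ERK activates (0.40 ± 0.10, 0.0368). The call of Rps6ka5 held on leaving out ketogenic 1 and was lost without any other library. Leaving out 1 library lowered the count of 10 to between 3 and 8, lowest without ketogenic 2 (3) and control 2 (4). The call of Camk2a was lost without ketogenic 2 (0.0624) and that of Mapk3 without control 2 (0.0521) or ketogenic 2 (0.0883). The summed markers of granule and pyramidal cells given above were lower on the ketogenic diet too, and their part in these falls was not tested.

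**Figure D5:**
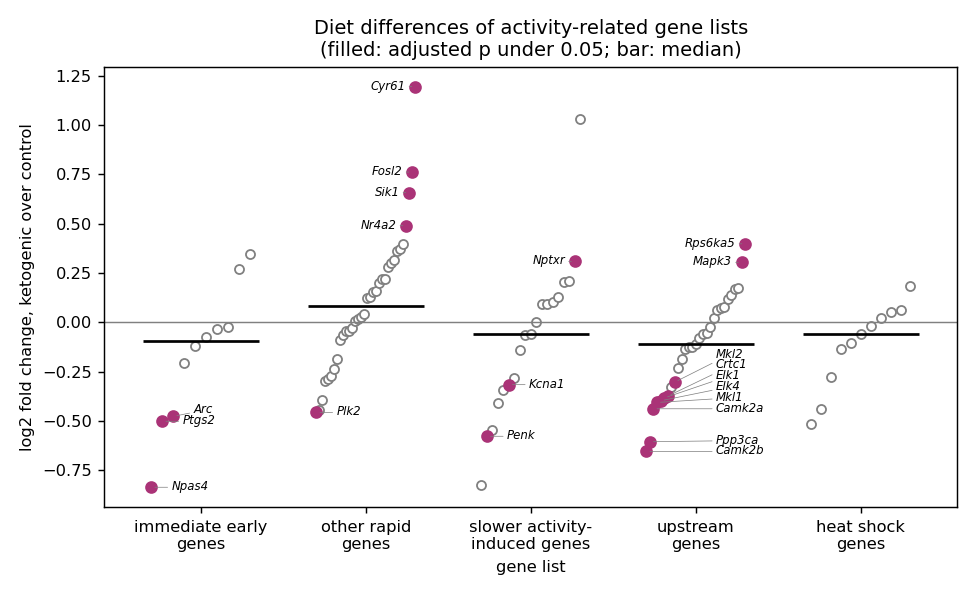
Log2 fold change, ketogenic over control, of every tested gene of 5 lists: the 10 immediate early genes, 34 other rapid genes, 19 slower genes, 29 upstream genes and 11 heat shock genes. Filled and named points have an adjusted p under 0.05 and bars are list medians, which lie between -0.11 and 0.08.

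Heat shock genes encode chaperones that heat and other stress induce. Of 11 such genes 0 passed in edgeR, where 9.67% of all tested genes passed, so the count lies near the background. In DESeq2 and in limma-voom 0 passed as well. At an unadjusted p under 0.05 in edgeR 2 of the 11 were lower, as were 1876 of all 16478 tested genes. Hspa8, the most abundant, had a log2 fold change of -0.06 ± 0.09 (adjusted p = 0.784). Within diets they marked library 3. Control 3 was the highest control library for 8 of the 11 heat shock genes and ketogenic 3 the highest ketogenic library for 10 of 11, against 37% and 36.4% of all tested genes. For the 10 immediate early genes these counts were 7 and 2, for the 34 other rapid genes 23 and 16, and for the 19 slower genes 11 and 15. Ketogenic 3 was therefore the high library of its diet for the heat shock genes and the slower genes and, for 7 of the 10 immediate early genes, the low one. It was the high one for Fosb and Ptgs2 and the middle one for Egr4.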

How the data were processed

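Messenger RNA from hippocampus of 6 mice, 3 per diet, was sequenced from Illumina TruSeq libraries, per the labels' protocols. The authors deposited raw read counts per gene and FPKM values (counts scaled by gene length and library size). Build mm9, DESeq2 1.10.1, featureCounts 1.5.0-p3 and CASAVA are named in the submitters' processing notes. Which aligner, strand option and FPKM software were used is not given in the sources used here. Of 53620 gene identifiers shared with GENCODE M21, 97.1% had the same start and end on GRCm38, so gene coordinates are taken as GRCm38. Among the 10 genes, the start and end of 9 were identical. Npas4 had the same start but ended at 4989971 in the deposited table and 4990316 in GENCODE. On its minus strand that end is where transcription begins. Its RefSeq promoter window follows the transcription start at 4989971, as in the counted gene model.

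Counts were filtered with filterByExpr, scaled by TMM and tested for diet with edgeR 4.0.16 (glmQLFit, glmQLFTest) in R 4.3.3, over 16478 genes, with Benjamini-Hochberg adjustment and a threshold of 0.05. Log2 CPM for profiles used a prior count of 2. FPKM served to compare levels between genes and, as log2(FPKM + 1) or log2(FPKM + 0.1) with a mean of at least 0.1, for limma 3.58.1. DESeq2 1.42.0, limma-voom, other scalings and filters, a replicate block and left-out libraries were the other alternatives, 16 in all. The test was checked on simulated data with 100 changes planted at each of 2 sizes. It recovered 60 of those of 1.5-fold and 90 of those of 2-fold, with 6 false calls. Smaller changes were not planted. Reads per library were 69 to 133 for Egr2, the lowest of the 10 genes, and 2329 to 4156 for Arc.

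The 10 genes and all lists were chosen with earlier results of these data known, and the photoreceptor list was added later. All 10 genes are named, with up to 8 passing genes and the 3 most abundant of each other activity list, up to 4 and the most abundant of the upstream and heat shock lists, and the 5 genes of nearest profile. The labels describe separate mice, so p-values set the diet difference against the variation between libraries of separate mice within a diet.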

Additional observations from a re-analysis of the deposited data

How the results depend on the processing

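Of 160 alternative values of the log2 fold changes of the 10 immediate early genes, 149 stayed on their side of the threshold, 9 lost the call and 2 gained it. Npas4, Arc and Ptgs2 kept their direction in all 16 alternatives, as did Fos and Egr1, while the uncalled estimates of Fosb, Junb, Egr2, Egr4 and Nr4a1 changed sign in at least 1. The count of genes changed with diet, 1593, became 2462 with no filter, 571 with log2(FPKM + 1), 695 with log2(FPKM + 0.1), 289 without control 1 and control 2, and 538 to 1877 without 1 library, lowest without ketogenic 2 (538), control 2 (677) and ketogenic 3 (885). Without control 1 and control 2 a single control library is left, assumed to vary like the ketogenic ones. The count of 3 immediate early genes became 1 to 4 without 1 library. It was 1 without control 2 (Npas4), 2 without ketogenic 3 (Npas4 and Ptgs2) and 4 without control 3, where Fosb was gained. Without ketogenic 2 it was also 2, Npas4 and Egr1, since Arc and Ptgs2 lost the call and Egr1 gained it. On the other 5 rapid genes, no filter gave 9, both FPKM scales 3, leaving out control 1 and control 2 gave 3, and leaving out 1 library 2 to 6 (2 without ketogenic 2, 3 without ketogenic 3). The 3 slower genes became 7 with no filter, 0 on both FPKM scales, and 0 to 4 without 1 library, with 0 without control 2 or ketogenic 2 and 1 without control 1 or ketogenic 3. The 10 upstream genes became 4 and 5 on the FPKM scales, and 3 to 8 without 1 library (3 without ketogenic 2, 4 without control 2). Without control 1 and control 2 the log2 fold changes were -0.53 for Ppp3ca, -0.62 for Camk2b, -0.43 for Camk2a and -0.28 for Crtc1. The counts of a list can include genes other than those called with all 6 libraries. The 0 heat shock genes became 2 with no filter and 0 to 1 without 1 library. Settings that leave out libraries test fewer samples, and for the other settings the cause was not tested.

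Replicate numbers are shared between diets, but no label says what a number marks, and deviations of same-numbered libraries correlated at -0.0237, 0.0609 and 0.0289 over 16478 genes, so they were not taken as pairs. The fit with the replicate block called 1504 genes, 3 immediate early genes, 5 slower genes and 1 heat shock gene. With 3 mice a diet and 69 to 133 reads a library, the 95% interval of the log2 fold change of Egr2 was -0.78 to 0.55.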
